A study of Rattus norvegicus with 6 samples.

Results

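The 9 genes described here build the junctions that hold epithelial cells together: the scaffolds Tjp1 (ZO-1), Tjp3 (ZO-3) and Cgn (cingulin), the membrane proteins Ocln (occludin), Marveld2 (tricellulin) and Marveld3, the adhesion molecule F11r (JAM-A), and the adherens junction pair Cdh1 (E-cadherin) and Ctnnb1 (beta-catenin). They are a list of named genes out of 28282 gene symbols in the count tables, and all 9 were present in all 6 libraries. The claudins were not included. UMIs (unique molecular identifiers, 1 per captured RNA molecule) of the 9 genes were summed over the nuclei of each library and are given as CPM, counts scaled to the same UMI total in every sum. RefSeq lists a pseudogene for F11r and for Ctnnb1, and how reads shared with such copies were counted is not given in the sources used here, so the levels of these genes are uncertain to that extent.

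The nuclei came from the ileum of wild-type male Sprague-Dawley rats, 6 weeks old on arrival and acclimatised for 7 days. In the SAP group (severe acute pancreatitis, 3 rats), 3% sodium taurocholate was infused backwards into the pancreatic duct at 0.1 mL per 100 g body weight and the duct was clamped for 5 min. The CON group (3 rats) had a sham laparotomy with no infusion, so the groups differed in the infused fluid as well as in the bile salt. Both groups were fasted after surgery and killed 24 h after induction, and each rat gave 1 single-nucleus library of whole ileal tissue.

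Tight junctions seal the space between neighbouring epithelial cells at their apical side. Their membrane proteins are tied by scaffolds of the ZO family and by cingulin to the actomyosin belt, and tricellulin sits at the corners where cells meet. Below them lies the adherens junction, where E-cadherin binds E-cadherin of the next cell and beta-catenin links its tail to actin. Beta-catenin is also the transcriptional effector of Wnt signalling in crypt stem cells. JAM-A is known from endothelium, leukocytes and platelets as well as epithelium, and ZO-1 and beta-catenin are used by many cell types.

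Of 90461 barcodes, 40970 passed the limits of the study's methods, with 3189 to 9246 nuclei and 5549260 to 28771508 UMIs per library and a median of 1516 to 1889.5 UMIs per nucleus. The median mitochondrial share was 0.125% to 0.70% in the CON libraries and 0.387% to 1.84% in the SAP libraries. Barcodes below 1000 UMIs are found in the matrices of CON replicate 2 and SAP replicate 1 and in no other. SAP replicate 2 stood apart for the junction genes, as given below. Classes of nuclei were named from marker genes ("X-like"): 6 epithelial classes (enterocyte-, stem/TA-, goblet-, tuft-, enteroendocrine- and Paneth-like, TA being transit-amplifying) and 3 epithelial clusters left unnamed had at least 10 nuclei in every library, as had 8 non-epithelial classes, cluster 13 among them. The unnamed epithelial clusters were clusters 1, 8 and 9. Cluster 1 was led by Ceacam20, Car4 and Slc26a3 and closest to enterocytes. Cluster 8 was led by Gfra4, Kif19 and Samd5 and closest to Paneth cells, and cluster 9 was led by Reg1a, Nhp2 and Hmmr and closest to goblet cells. Cluster 13, also unnamed, was counted as non-epithelial because its highest marker score (mean log2 ratio) was for neuron-associated cells. That score was 1.24, against 1.03 for endothelial cells, and 0 of its 10 leading genes were markers of neuron-associated cells, so its place outside the epithelium is not settled. Over all passing nuclei the members had from 3200 UMIs (Marveld2) to 82467 UMIs (Cdh1).

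The 250 bases before the annotated start were available from RefSeq (build GRCr8) for 7 of the 9 genes, all but Cdh1 and Marveld3. They were searched on both strands for CACCTG, the E-box hexamer bound by the Snail and Zeb repressors of epithelial genes, and 3 of the 7 held it: Tjp3 with 1 match (chr7:9084174-9084423, plus strand), Ocln with 2 matches (chr2:33441199-33441448, minus strand) and F11r with 1 match (chr13:86405979-86406228, plus strand). Tjp1, Cgn, Marveld2 and Ctnnb1 had 0 matches. Of 33469 rat promoter windows of this length, 15.9% held the hexamer. The 3 windows are shown because F11r had the largest fold change of the 9 genes and the others share its hexamer. Capitals mark the hexamer on either strand, each sequence reads 5′ to 3′ on the strand of the gene, and a match is a description of the sequence and not a binding site.
Tjp3: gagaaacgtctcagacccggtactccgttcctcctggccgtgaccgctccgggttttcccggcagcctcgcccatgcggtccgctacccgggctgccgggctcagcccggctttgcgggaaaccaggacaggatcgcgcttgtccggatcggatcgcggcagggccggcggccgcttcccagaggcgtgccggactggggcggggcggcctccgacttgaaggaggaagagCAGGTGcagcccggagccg
Ocln: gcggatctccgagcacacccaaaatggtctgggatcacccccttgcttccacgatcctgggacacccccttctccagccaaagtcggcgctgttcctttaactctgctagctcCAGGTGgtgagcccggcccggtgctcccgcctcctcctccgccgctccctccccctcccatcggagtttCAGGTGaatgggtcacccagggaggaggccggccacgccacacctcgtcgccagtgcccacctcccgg
F11r: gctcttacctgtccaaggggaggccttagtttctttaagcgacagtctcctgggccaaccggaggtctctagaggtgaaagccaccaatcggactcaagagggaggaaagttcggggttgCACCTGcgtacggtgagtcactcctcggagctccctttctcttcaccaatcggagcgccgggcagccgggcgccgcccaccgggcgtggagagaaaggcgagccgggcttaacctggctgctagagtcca

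RNA of all 9 genes was counted in every non-epithelial class. In most pairs of gene and class its level, relative to epithelium, did not exceed that of every marker used to define epithelium. The 10 epithelial markers (Epcam, Vil1, Krt8, Krt18, Krt20, Cdx1, Cdx2, Elf3, Hnf4a and Esrp1) summed to 5287 ± 641 CPM in epithelial nuclei and 4139 ± 799 CPM in T-like nuclei, 78.2% ± 10.6 of the epithelial level (SD over 6 libraries, as in all levels by class). In the other direction, the smooth muscle (SMC) markers stood in epithelial nuclei at 1.85% of their level in SMC-like nuclei, the B cell markers at 2.78%, the macrophage markers at 7.08% and the T cell markers at 25.2%. Epithelial nuclei held between 76.4% (Tjp1) and 80.7% (Cdh1) of the UMIs of a junction gene, against 75.2% of all UMIs. Enterocyte-like nuclei held 28.4% of the UMIs of F11r, against 13.6% of all UMIs. A level of a junction gene in a non-epithelial class was therefore read against the epithelial markers in the same nuclei.

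Of 72 pairs of a junction gene and a non-epithelial class, 22 lay above every one of the 10 epithelial markers in that class, each taken as a percent of its own epithelial level. They were spread unevenly, with Ctnnb1 above the markers in 6 of 8 classes, Tjp1 in 5, F11r in 3, Ocln and Marveld2 in 2 each, and Cdh1, Cgn, Tjp3 and Marveld3 in 1 each. The share of all genes that pass this rule was not computed, so the count does not set the junction genes apart from other genes. The highest marker is a strict limit. A pair below it could still lie above the marker median, as Cgn in B-like nuclei did (66.2%, against 61.2%). Others lay below the median, as Tjp3 in endothelial-like nuclei did (57.9%, against 72.1%). The count was made on means over libraries, and some pairs rested on few UMIs. These were Marveld2 in B-like nuclei (48 UMIs, 36.8% to 256% between libraries) and endothelial-like nuclei (60 UMIs, 22.7% to 338%), and Marveld3 in B-like nuclei (83 UMIs, 44.5% to 167%). Tjp1 was at 161% ± 85.6 of its epithelial level in neuron-associated (NAC-like) nuclei, where the markers had a median of 35.8% and a highest value of 66.1%. This level rested on 148 UMIs in all, from 6 to 44 per library, and ran from 96.9% to 324% between libraries. In cluster 13 Tjp1 was at 133% ± 24.5, against a highest marker of 101%, and in endothelial-like nuclei at 105% ± 20.2, against 97.2%.

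Ctnnb1 was at 102% ± 12.3 of its epithelial level in T-like nuclei (87.5% to 119% between libraries), where the highest epithelial marker was at 96.5%. It was at 101% ± 13.3 in endothelial-like nuclei, against a highest marker of 97.2%, and at 87.7% ± 11.7 in SMC-like nuclei, against 57.5%. Cdh1, whose protein defines epithelial adherens junctions, was at 58.4% ± 11.4 in SMC-like nuclei. The scaffolds Cgn and Tjp3 were there at 58.0% ± 18.7 and 51.0% ± 18.3, and F11r was at 65.5% ± 19.3. These are levels relative to the same gene in epithelium, so they do not rank the genes against each other.

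**Figure D1:**
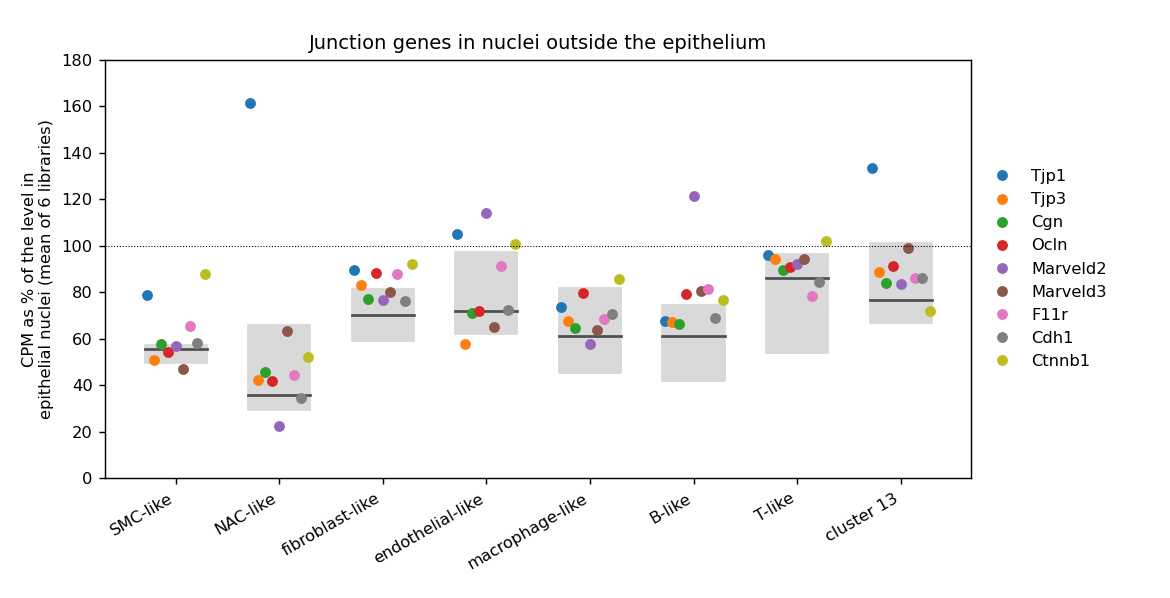
Level of each junction gene in 8 non-epithelial classes as a percent of its level in epithelial nuclei (points, mean over 6 libraries). The grey box is the range of the 10 epithelial markers in the same class and the dark line their median; Tjp1 in NAC-like nuclei (161%) and in cluster 13 (133%) sits above the box, whereas most Cdh1, Cgn, Tjp3 and Marveld3 points lie inside or below it.

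The share of nuclei with at least 1 UMI gave the same limit. Thinned to 1200 UMIs per nucleus, Cdh1 was detected in 63.8% of epithelial nuclei (76.8% unthinned, median 1731 UMIs) and in 46.5% of SMC-like nuclei (63.8% unthinned, median 1779 UMIs). F11r was detected in 28.6% of enterocyte-like nuclei (42.5% unthinned, median 1900.5 UMIs) but in 11.1% of stem/TA-like nuclei, between its shares of 10.8% in SMC-like and 12.7% in T-like nuclei. Cgn was detected in 18.3% of stem/TA-like nuclei, between 15.2% in SMC-like and 19.6% in T-like nuclei, and Tjp1 in 13.7%, between 12.2% and 14.8%. In enterocyte-like nuclei these shares were 31.7% and 20.9%. The stem/TA-like shares of these 3 genes thus lay inside the range of the shares found outside the epithelium, and how much of them was free RNA was not tested. No nucleus was thinned from below 1200 UMIs, since that was the limit for passing.

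Neighbours in the order of class levels overlapped for all 9 genes, while ratios within each rat, given below, set some classes apart. Ordered by mean CPM over all 17 classes, epithelial or not, 144 of 144 neighbouring pairs of classes overlapped in their ranges over libraries, and 6 of the 144 were higher in 6 of 6 libraries. Neighbours in such an order lie close by the way they are chosen, and ranges do not pair the classes by rat. The overlap therefore does not show that classes had the same level. The genes were kept out of the features used for clustering, but classes and levels came from the same nuclei, so the levels by class are a description with no test. They are CPM of all UMIs in the nuclei of a class, without further scaling. Paneth-like nuclei had a median of 5235 UMIs, against 1610 in stem/TA-like nuclei, and numbered 19 to 419 per library. Their CPM is thus a share of a larger total and does not rank them per nucleus. Without thinning, Ctnnb1 was detected in 52.5% of Paneth-like and 33.3% of stem/TA-like nuclei, and Cdh1 in 65.1% and 72.6%.

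Among the scaffolds, Tjp1 links occludin, claudins and JAM-A to actin. It was at 225 ± 44.8 CPM in cluster 1, 211 ± 63.6 in enterocyte-like nuclei, 175 ± 35.8 in enteroendocrine-like nuclei and 161 ± 49.5 in goblet-like nuclei. Then followed tuft-like nuclei (143 ± 38.3), stem/TA-like nuclei (126 ± 41.0), cluster 9 (111 ± 37.8), cluster 8 (109.7 ± 42.7) and, lowest, Paneth-like nuclei (63.7 ± 37.1). Tjp3, a ZO protein found mainly in epithelia, was at 265 ± 91.8 CPM in cluster 1, 242 ± 87.7 in goblet-like nuclei, 228 ± 97.5 in stem/TA-like nuclei and 207 ± 95.4 in tuft-like nuclei. Lower levels stood in enterocyte-like nuclei (204 ± 104), enteroendocrine-like nuclei (158 ± 122), cluster 8 (154 ± 102), cluster 9 (148 ± 73.2) and, lowest, Paneth-like nuclei (78.8 ± 69.7). Cgn, which binds ZO-1 and myosin, was at 344 ± 90.4 CPM in cluster 1, 337 ± 98.1 in enterocyte-like nuclei, 216 ± 113 in goblet-like nuclei and 206 ± 117 in tuft-like nuclei. The next were stem/TA-like nuclei (183 ± 117), enteroendocrine-like nuclei (178 ± 98.3), cluster 9 (160.2 ± 63.2), cluster 8 (145 ± 98.7) and, lowest, Paneth-like nuclei (78.3 ± 45.5). Cluster 1 and the enterocyte-like nuclei stood at the top for Tjp1 and Cgn, and Paneth-like nuclei were last by CPM for all 3 scaffolds.

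Among the tetraspan membrane proteins, Ocln was at 304 ± 65.4 CPM in enterocyte-like nuclei, 287 ± 43.9 in cluster 1, 242 ± 49.8 in stem/TA-like nuclei and 232 ± 60.0 in enteroendocrine-like nuclei. After these came goblet-like nuclei (232 ± 54.9), tuft-like nuclei (202 ± 57.9), cluster 9 (177 ± 70.1), cluster 8 (149 ± 51.9) and, lowest, Paneth-like nuclei (97.3 ± 52.7). Marveld2, the protein of the tricellular junction, was at 46.6 ± 10.6 CPM in cluster 1, 41.6 ± 17.8 in tuft-like nuclei, 38.9 ± 13.7 in goblet-like nuclei and 38.3 ± 21.3 in enteroendocrine-like nuclei. The others were stem/TA-like nuclei (35.5 ± 9.94), enterocyte-like nuclei (35.5 ± 7.56), cluster 9 (32.1 ± 14.6), cluster 8 (31.2 ± 15.9) and, lowest, Paneth-like nuclei (18.8 ± 21.5). Marveld3 was at 94.5 ± 20.5 CPM in cluster 1, 78.6 ± 7.42 in enterocyte-like nuclei, 71.8 ± 13.5 in enteroendocrine-like nuclei and 67.9 ± 18.8 in stem/TA-like nuclei. It was lower in goblet-like nuclei (61.4 ± 16.4), cluster 8 (47.1 ± 16.0), cluster 9 (46.0 ± 17), tuft-like nuclei (45.9 ± 21.9) and, lowest, Paneth-like nuclei (31.9 ± 22.0). In all 3, each class overlapped the next in its range over libraries, and Paneth-like nuclei were again last by CPM.

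The immunoglobulin-type adhesion molecule F11r was at 326 ± 136 CPM in enterocyte-like nuclei, 165 ± 38.4 in cluster 1, 143 ± 87.7 in cluster 9 and 142 ± 42.5 in tuft-like nuclei. Below them were goblet-like nuclei (131 ± 37.3), enteroendocrine-like nuclei (125 ± 29.6), cluster 8 (111 ± 35.7), stem/TA-like nuclei (101 ± 38.3) and, lowest, Paneth-like nuclei (64.8 ± 33.9). Its enterocyte-like level was above that of the next of the 17 classes in 6 of 6 libraries. Cdh1 was at 1247 ± 297 CPM in enterocyte-like nuclei, 1093 ± 148 in cluster 1, 901 ± 158 in goblet-like nuclei and 842 ± 114 in stem/TA-like nuclei. Next in order were cluster 9 (829 ± 166), tuft-like nuclei (827 ± 150.3), enteroendocrine-like nuclei (750.4 ± 246), cluster 8 (633 ± 187) and, lowest, Paneth-like nuclei (419 ± 179). Ctnnb1 was at 403 ± 65.5 CPM in cluster 8, 319 ± 50.7 in enterocyte-like nuclei, 315 ± 47.2 in cluster 1 and 261 ± 71.0 in enteroendocrine-like nuclei. Its other levels were in tuft-like nuclei (253 ± 52.6), stem/TA-like nuclei (251 ± 66.6), goblet-like nuclei (221 ± 73.9), cluster 9 (215 ± 71.4) and, lowest, Paneth-like nuclei (178 ± 52.3). Cluster 8 stood above the next of the 17 classes in 6 of 6 libraries. Ctnnb1 was the member for which a class other than enterocyte-like nuclei or cluster 1 stood highest in epithelium.

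Taken within each rat, the ratio of the enterocyte-like to the stem/TA-like level was largest for F11r, at 3.27 ± 1.04 (range 2.08 to 4.58, above 1 in 6 of 6 libraries), where the share of stem/TA-like nuclei with F11r was no higher than that of T-like nuclei. The ratio was 2.09 ± 0.540 for Cgn (above 1 in 6 of 6 libraries), 1.69 ± 0.246 for Tjp1 (above 1 in 6 of 6 libraries), 1.48 ± 0.295 for Cdh1 (above 1 in 6 of 6 libraries) and 1.27 ± 0.211 for Ocln (above 1 in 6 of 6 libraries). It was 1.31 ± 0.235 for Ctnnb1 (above 1 in 5 of 6 libraries) and 1.22 ± 0.301 for Marveld3 (above 1 in 5 of 6 libraries). Marveld2 and Tjp3 showed no such step, with 1.02 ± 0.108 (above 1 in 4 libraries) and 0.882 ± 0.193 (above 1 in 1 library).

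Of 5 clusters inside these classes, clusters 2, 0, 7 and 5 can be laid along the crypt-villus axis by their leading genes. The place of cluster 1 between clusters 0 and 7 was assumed. Its highest marker score was for enterocytes, at 0.13 against 1.55 in cluster 7. At the crypt end is cluster 2, led by Olfm4 and Lgr5, the markers of crypt base stem cells, followed by the mitotic cluster 0 (Plk1, Hjurp) and cluster 1. Then come cluster 7, led by Slc6a19, Anpep and the ileal bile acid carrier Slc10a2, and cluster 5. Cluster 5 was led by Ly6m, Samd9, Apoa4, Slc28a2, Isg15 and Ada, of which Apoa4, Slc28a2 and Ada are villus tip genes. In this order the mean F11r level was 88.5 ± 22.3 CPM in cluster 2, 105 ± 44.2 in cluster 0, 165 ± 38.4 in cluster 1, 182 ± 51.2 in cluster 7 and 432 ± 191 in cluster 5. Within each rat F11r was 4.75 ± 1.59 times as high in cluster 5 as in cluster 2 (range 2.92 to 7.13). The corresponding ratios were 2.80 ± 0.658 for Tjp1, 2.36 ± 0.709 for Cgn, 1.87 ± 0.493 for Cdh1, 1.48 ± 0.231 for Ctnnb1 and 1.39 ± 0.370 for Ocln, each above 1 in 6 of 6 libraries. They were 1.23 ± 0.312 for Marveld3 (lowest 0.813) and 1.13 ± 0.252 for Marveld2, above 1 in 4 of 6 libraries each, and 1.14 ± 0.239 for Tjp3, above 1 in 5 of 6. A further enterocyte-like cluster, cluster 15 (793 nuclei), led by Fabp6, Rdh7 and C3, was not placed on the axis. Its F11r level was 1.41 ± 0.405 times that of cluster 7, above 1 in 5 of 6 libraries. The mean ratios of the other members ran from 0.590 (Marveld2) to 0.970 (Cdh1).

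Between the villus clusters 7 and 5 the members differed in direction. From cluster 7 to cluster 5 the ratio was 2.36 ± 0.891 for F11r, 1.48 ± 0.293 for Tjp1 and 1.37 ± 0.278 for Cdh1, above 1 in 6 of 6 libraries for each. It was 0.747 ± 0.106 for Cgn and 0.720 ± 0.119 for Marveld3, below 1 in 6 of 6 libraries for both. Ocln (1.10 ± 0.157), Ctnnb1 (0.971 ± 0.0582), Tjp3 (0.931 ± 0.159) and Marveld2 (0.796 ± 0.226) had libraries on both sides of 1. In cluster 8, Ctnnb1 was 1.67 ± 0.386 times its stem/TA-like level and higher in 6 of 6 libraries, whereas Cdh1, its binding partner, was 0.740 ± 0.118 times that level and lower in 6 of 6.

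**Figure D2:**
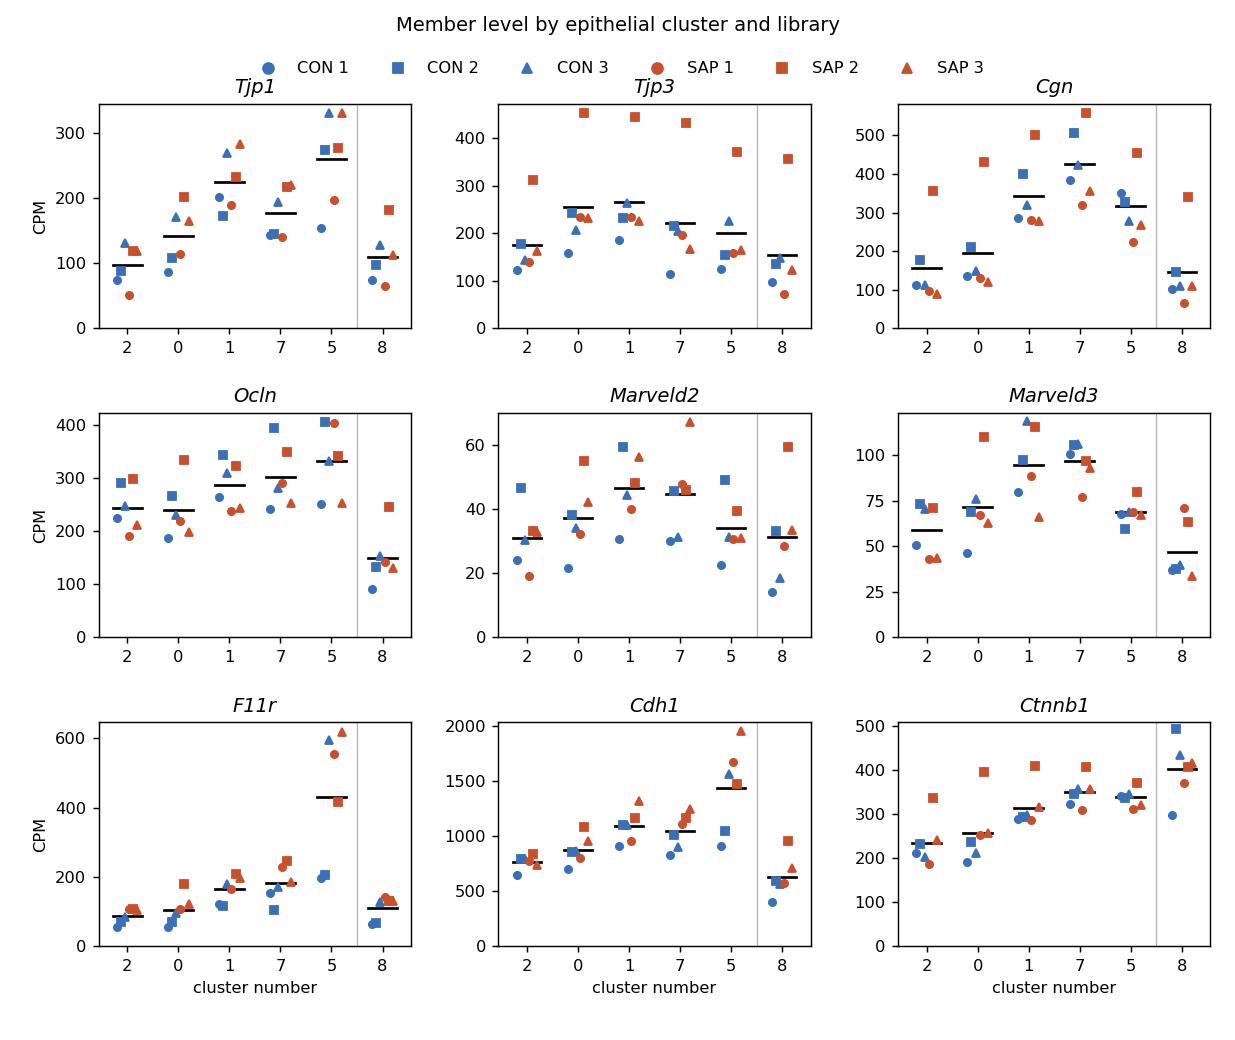
Level of each junction gene (CPM) in 5 epithelial clusters set along the crypt-villus axis (2, 0, 1, 7 and 5) and, right of the vertical line, in cluster 8. The place of cluster 1 on the axis was assumed. Each point is 1 library, its colour gives the group and its shape the replicate. F11r, Tjp1 and Cdh1 are higher in cluster 5 than in cluster 7 in all 6 libraries and Cgn and Marveld3 are lower in all 6, whereas Ctnnb1 is high in cluster 8.

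Over the 9 epithelial classes, Pearson's r between the class profiles of a pair of members (log2(CPM + 1)) ran from 0.421 to 0.971 over 36 pairs, with a median of 0.847. Over all 17 classes it ran from 0.100 to 0.938, with a median of 0.657. The classes share libraries and the epithelial RNA found in all of them, so r is a description. Among 12645 genes, those whose profile over the 17 classes was most like the mean of the 9 included Misp (r = 0.974), Vil1 (r = 0.965), Gata5 (r = 0.962) and RGD1306556 (r = 0.962). Misp is an actin-bundling protein, Vil1 (villin) bundles the actin of microvilli and was among the epithelial markers, and Gata5 is a transcription factor of gut epithelium. For single members the nearest genes were Sptan1 for Tjp1 (r = 0.905), Inava for Tjp3 (r = 0.946), Gata5 for Ocln (r = 0.954), Vil1 for Cgn (r = 0.989), Muc13 for F11r (r = 0.960), Samd10 for Marveld2 (r = 0.918), Clcn2 for Marveld3 (r = 0.911), Spint1 for Cdh1 (r = 0.970) and Blcap for Ctnnb1 (r = 0.882).

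None of the 9 junction genes passed the test between SAP and CON in epithelial nuclei. UMIs of the 31070 epithelial nuclei were summed per rat and fitted with edgeR over 16866 genes, with CPM scaled by TMM (trimmed mean of M-values). A call required an adjusted p below 0.05 together with a log2 fold change of 0.5 or more in either direction. By that rule 0 of 9 members were called, against 0% of all genes, and DESeq2 also called 0 of 9 while it called 303 genes (2.08%) in all. All 9 log2 fold changes were above 0, as were 49.8% of all genes, with a median of 0.45 against -0.003 over all genes. At an unadjusted p under 0.05 stood 1 of 9 members, F11r, and 11.2% of all genes. The 3 SAP libraries lay above the 3 CON libraries for 2 of 9 members, F11r and Cdh1, and for 6.81% of all genes.

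F11r was at 98.9, 83.3 and 145 CPM in CON replicates 1 to 3 and 229, 261 and 164 CPM in SAP replicates 1 to 3. Every SAP library lay above every CON library, and the lowest SAP value, in replicate 3, was close to the highest CON value, also in replicate 3. The log2 fold change was 1.00 (95% interval 0.35 to 1.65), SE 0.28, with an unadjusted p of 0.008 and an edgeR adjusted p of 0.402. Cdh1 was at 775, 802 and 785 CPM in CON replicates 1 to 3 and 1055, 1259 and 912 CPM in SAP replicates 1 to 3 (log2 fold change 0.45, SE 0.22, edgeR adjusted p = 0.484). After TMM scaling the 3 CON values of Cdh1 lay within a narrow band, and all 3 SAP values were above it. Without TMM scaling the Cdh1 groups overlapped. Between the libraries that list barcodes under 1000 UMIs (CON replicate 2 and SAP replicate 1) the log2 ratio was 1.46 for F11r and 0.40 for Cdh1, and between the other 4 libraries it was 0.80 and 0.48.

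In the scaffolds, 1 library stood above the rest. Tjp1 was at 116, 117 and 164 CPM in CON replicates 1 to 3 and 146, 239 and 163 CPM in SAP replicates 1 to 3 (log2 fold change 0.46, SE 0.26, edgeR adjusted p = 0.530). Tjp3 was at 151, 195 and 167 CPM in CON replicates 1 to 3 and 201, 439 and 151 CPM in SAP replicates 1 to 3 (log2 fold change 0.62, SE 0.39, edgeR adjusted p = 0.568). Cgn was at 188, 229 and 169.6 CPM in CON replicates 1 to 3 and 199, 492 and 154 CPM in SAP replicates 1 to 3 (log2 fold change 0.53, SE 0.43, edgeR adjusted p = 0.660). In each of the 3, SAP replicate 2 was the highest library and the groups overlapped, and for Cgn SAP replicate 3 was the lowest of all 6 libraries.

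SAP replicate 2 was also the highest library for the membrane proteins. Ocln was at 213, 254 and 203 CPM in CON replicates 1 to 3 and 256, 342 and 169 CPM in SAP replicates 1 to 3 (log2 fold change 0.19, SE 0.28, edgeR adjusted p = 0.813). Marveld2 was at 25.4, 39.8 and 29.0 CPM in CON replicates 1 to 3 and 33.6, 51.9 and 34.3 CPM in SAP replicates 1 to 3 (log2 fold change 0.35, SE 0.29, edgeR adjusted p = 0.664). Marveld3 was at 62.8, 65.3 and 65.4 CPM in CON replicates 1 to 3 and 68.8, 99.3 and 48.6 CPM in SAP replicates 1 to 3 (log2 fold change 0.16, SE 0.28, edgeR adjusted p = 0.844). Their groups overlapped, and SAP replicate 3 was the lowest library for Ocln and Marveld3. Ctnnb1 was at 261, 241 and 222 CPM in CON replicates 1 to 3 and 267, 406 and 222 CPM in SAP replicates 1 to 3 (log2 fold change 0.31, SE 0.26, edgeR adjusted p = 0.676), with SAP replicate 1 near the CON values, SAP replicate 3 level with the lowest of them and SAP replicate 2 above all others.

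**Figure D3:**
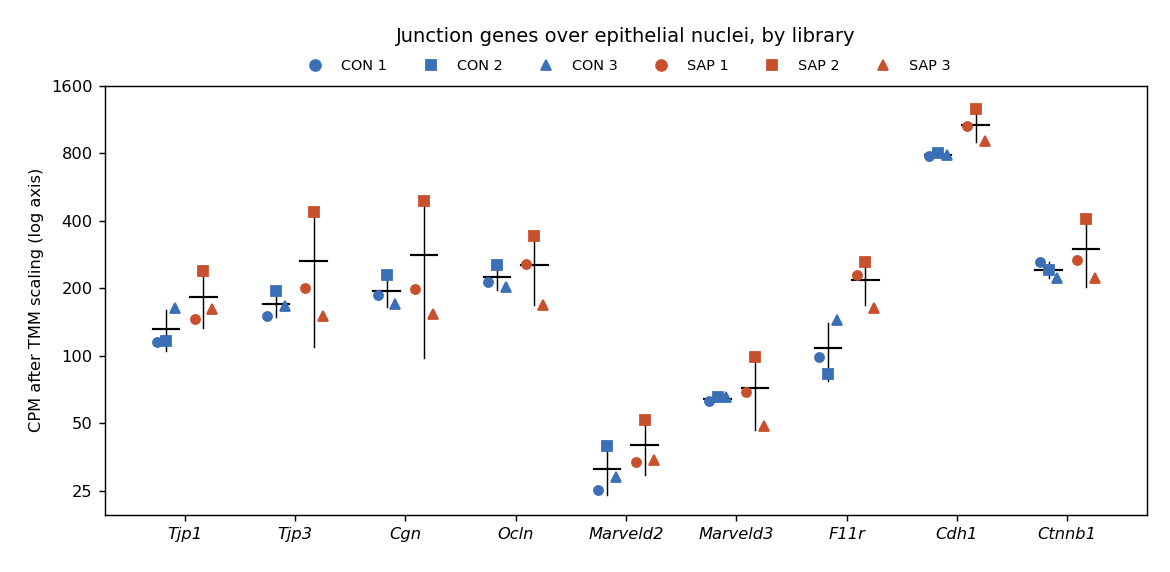
TMM-scaled CPM of each junction gene in the epithelial nuclei of each rat on a log axis, CON replicates 1 to 3 beside SAP replicates 1 to 3, with the mean of each group (horizontal line) and its SD (vertical line). SAP replicate 2 is the highest library for all 9 genes, and the groups do not overlap for F11r (83.3 to 145 against 164 to 261 CPM) and Cdh1 (775 to 802 against 912 to 1259 CPM).

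SAP replicate 2 was the highest of the 6 libraries for 9 of 9 members, which held for 25.6% of all genes and for 4 of the 10 epithelial markers. It exceeded the mean of the other SAP libraries 2.79 times for Cgn, 2.50 times for Tjp3 and 1.28 to 1.69 times for the other 7 members. Without it, the log2 fold change was 0.85 for F11r, 0.33 for Cdh1, 0.23 for Tjp1, 0.13 for Marveld2, 0.05 for Tjp3 and 0.03 for Ctnnb1. It was below 0 for Cgn (-0.14), Marveld3 (-0.13) and Ocln (-0.07), so that 6 of 9 members were above 0 and their median was 0.05. Leaving out any other library kept all 9 above 0, as did scaling by library totals or by RLE factors. The median mitochondrial share was higher in SAP replicates 1 and 2 (1.84% and 1.29%) than in the other libraries (up to 0.70%). With nuclei limited to at most 2% mitochondrial UMIs, 9 of 9 log2 fold changes were above 0 (median 0.42). The part of the mitochondrial share in the values of SAP replicate 2 was not tested.

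The make-up of the epithelial nuclei also differed between the groups. Enterocyte-like nuclei made up 9.62% ± 3.30 of epithelial nuclei in CON and 23.9% ± 8.23 in SAP (SD, n = 3 each), and stem/TA-like nuclei 40.3% ± 6.29 and 22.0% ± 10.2. SAP replicate 2 had the highest enterocyte-like share (33.0%) and the lowest stem/TA-like share (10.7%) of the 6 libraries. In a sum over epithelial nuclei, more nuclei of a class and more RNA per nucleus cannot be told apart. In the same fit 6 of 6 villus tip markers had a log2 fold change above 0 (median 1.72; summed level 307 to 609 CPM in CON and 769 to 1503 CPM in SAP), as had 12 of 13 enterocyte markers (median 0.80). The log2 fold change was above 0 in 0 of 12 TA markers (median -1.19) and 0 of 9 stem markers (median -0.52), and 0 markers of these lists were called by edgeR (15 at an unadjusted p under 0.05).

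With every epithelial class held at its mean share over the 6 rats, F11r was at 94.3, 99.8 and 179 CPM in CON replicates 1 to 3 and 183, 213 and 201 CPM in SAP replicates 1 to 3. The SAP libraries still lay above the CON libraries, and the ratio of the group means was 1.60, against 1.92 with the shares as they were (two-sided exact permutation p = 0.1, the smallest that 3 against 3 rats allow, 1 of 9 such comparisons). For Cdh1 the ratio was 1.21 against 1.35 (exact permutation p = 0.3, and 0.2 with the shares as they were). These levels are CPM without TMM scaling. On that scale the Cdh1 groups overlapped both at held shares and with the shares as they were. The other ratios at held shares were 1.40 for Tjp3, 1.18 for Tjp1, 1.17 for Ctnnb1, 1.17 for Marveld2, 1.16 for Cgn, 1.01 for Ocln and 0.983 for Marveld3, with exact p between 0.4 and 1. In the 7 genes the groups overlapped. At held shares SAP replicate 2 was still the highest library for every member but Cdh1 (1098 CPM, against 1102 CPM in SAP replicate 3). It was at 419 CPM for Cgn and 395 CPM for Tjp3. Some classes join clusters, as enterocyte-like nuclei join clusters 5, 7 and 15, and shares inside a class were not held. In enterocyte-like nuclei 6 of 6 villus tip markers had a log2 fold change above 0 (median 1.21), and 6 of 13 enterocyte markers (median -0.16). In stem/TA-like nuclei 12 of 12 enterocyte markers were above 0 (median 0.91). The part of such shifts inside a class in the held levels and in the class values was not tested.

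**Figure D4:**
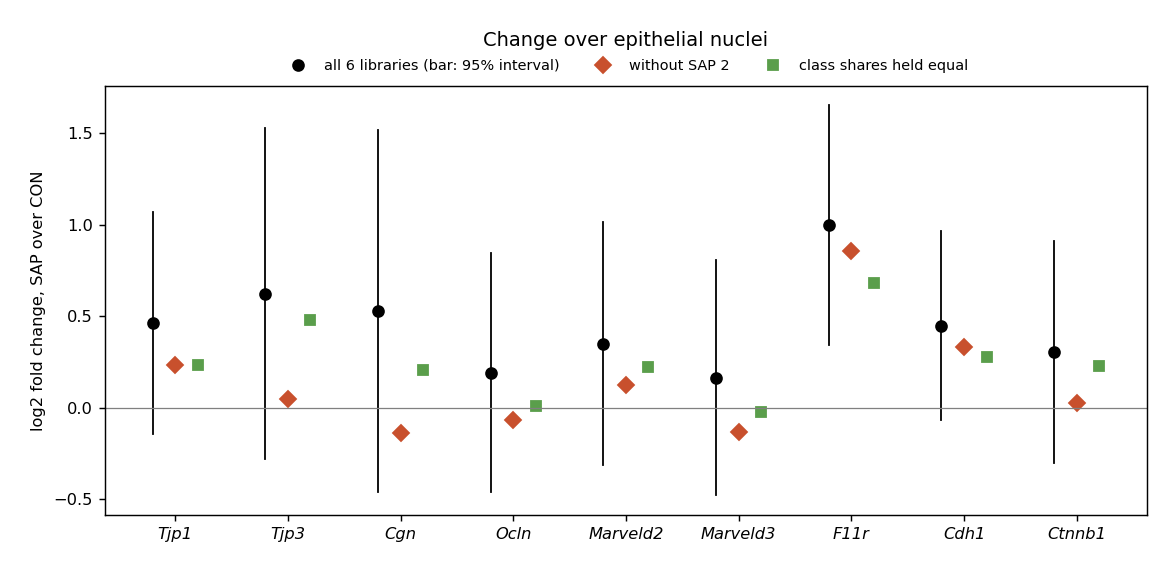
Log2 fold change (SAP over CON) of each junction gene in epithelial nuclei: from all 6 libraries with its 95% interval (black), without SAP replicate 2 (red diamond) and with the class shares held equal (green). The green values are log2 ratios of group mean CPM without TMM scaling, a measure by which F11r was at 0.94 with the shares as they were. F11r keeps values from 0.68 to 1.00 in all 3, whereas Cgn, Marveld3 and Ocln fall below 0 without SAP replicate 2. Marveld3 is also below 0 at held shares (-0.02).

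Over all nuclei, where non-epithelial nuclei entered the sums, 0 of 9 members were called by edgeR or DESeq2, against 0% of 19187 genes by edgeR and 1.54% (215 genes) by DESeq2. F11r was at 93.4, 89.1 and 128 CPM in CON replicates 1 to 3 and 225, 255 and 121 CPM in SAP replicates 1 to 3 (log2 fold change 0.95, SE 0.32, edgeR adjusted p = 0.545, unadjusted p = 0.0173), and 1 of 9 members stood at an unadjusted p under 0.05, against 8.43% of all genes. All 9 log2 fold changes were above 0, against 52.2% of all genes. Here the groups overlapped for all 9 members, while the SAP libraries lay above the CON libraries for 4.9% of all genes, and SAP replicate 2 was again the highest library for each (22.6% of all genes). Without it, 3 of 9 were above 0. Epithelial nuclei made up 54.8% to 88.8% of the nuclei of a library.

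Within single classes, F11r was the member whose SAP libraries lay above the CON libraries most often, in 6 of 9 epithelial classes. Of 137 pairs of a member and a class that could be tested, 0 were called by edgeR. Over all genes, 0.00993% of the tests in the epithelial classes and 0.00897% of those in the other classes were called. Of the 77 epithelial pairs, 10 stood at an unadjusted p under 0.05 (8.81% of all gene tests in these classes) and 65 had a log2 fold change above 0 (50.5%). In 13 of the 77 the SAP libraries lay above the CON libraries (6.41%), and in 0 below them (8.14%). SAP replicate 2 was the highest library in 58 of the 77 (23.4%). Of the 60 pairs outside the epithelium, 1 stood at an unadjusted p under 0.05 (6.33%), and 52 had a log2 fold change above 0 (51%). The SAP libraries lay above the CON libraries in 3 of the 60 (5.33%) and below them in 0 (7.02%). SAP replicate 2 was highest in 55 of the 60, against 15.9% (NAC-like) to 24.9% (endothelial-like) of all genes in these classes. The pairs repeat the same genes and rats and are not independent of each other, so their counts are a description.

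F11r had a log2 fold change above 0 in 9 of 9 epithelial classes, from 0.51 in cluster 1 to 1.17 in cluster 9, with an unadjusted p under 0.05 in 5 classes and a lowest edgeR adjusted p of 0.295. It stayed above 0 in all 9 without any 1 library, but its size moved. Without SAP replicate 2 it was 0.71 in cluster 9, 0.28 in goblet-like nuclei (0.56 with it) and 0.33 in enteroendocrine-like nuclei (0.56 with it). In enterocyte-like nuclei it was at 218, 122 and 389 CPM in CON replicates 1 to 3 and 486, 340.0 and 435 CPM in SAP replicates 1 to 3 (log2 fold change 0.78, SE 0.41, edgeR adjusted p = 0.780), and the change was 0.46 without CON replicate 2 and 1.30 without CON replicate 3. In stem/TA-like nuclei it was at 60.8, 69.1 and 85.8 CPM in CON replicates 1 to 3 and 116, 175 and 104 CPM in SAP replicates 1 to 3 (log2 fold change 0.87, SE 0.25, edgeR adjusted p = 0.543). No difference between the changes in this pair of classes was called for F11r (interaction log2 difference 0.01, SE 0.42, edgeR adjusted p = 0.999); 0 of 9 members and 0% of 13474 genes were called for it by edgeR, with 0 of 9 members and 5.17% of genes at an unadjusted p under 0.05. In the 7 non-epithelial classes where it could be tested, F11r also had log2 fold changes above 0, from 0.44 in T-like to 0.98 in fibroblast-like nuclei, with overlapping groups in each. T-like nuclei were counted as non-epithelial by their T cell markers, though the epithelial markers stood there at 78.2% of the epithelial level. Their villus tip markers had a median log2 fold change of 1.10 (5 of 6 above 0) and their TA markers of -1.21 (0 of 11 above 0), with 0 called. The part of such epithelial RNA in the class values was not tested.

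**Figure D5:**
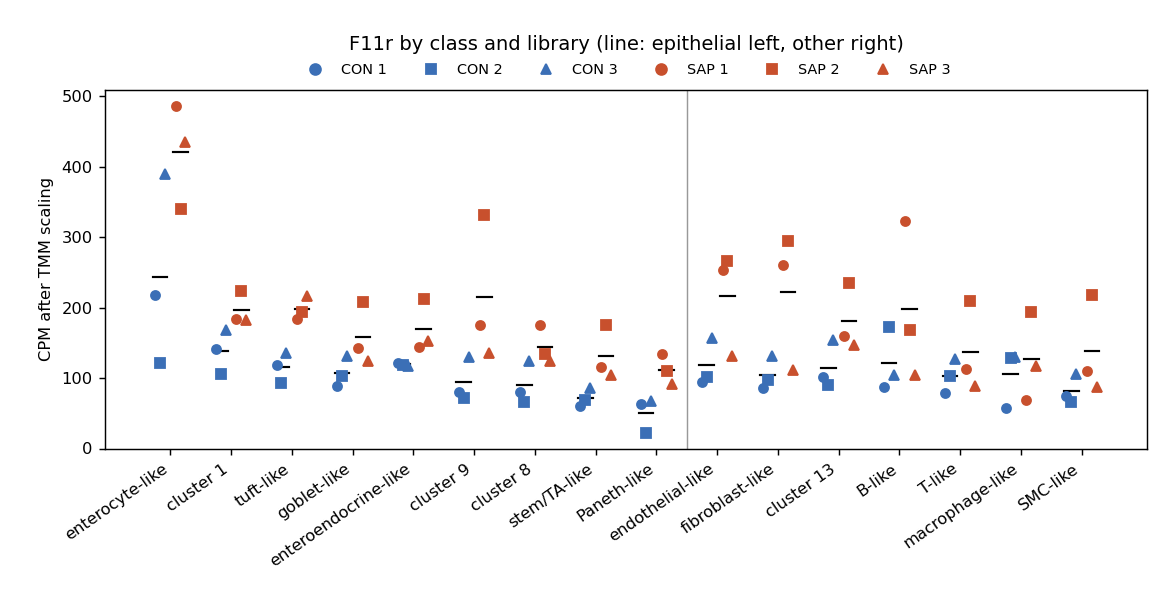
F11r level (TMM-scaled CPM) per library in each class that could be tested, epithelial classes left of the vertical line and the others right of it, with CON and SAP libraries marked apart and a horizontal line at each group mean. The log2 fold change is above 0 in all 16 classes, and the SAP points lie above all CON points in 6 of the 9 epithelial classes and in 0 of the 7 others.

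Cdh1 was above 0 in 9 of 9 epithelial classes, from 0.12 in cluster 9 to 0.54 in enterocyte-like nuclei, with the SAP libraries above the CON libraries in 4. Tjp3 was above 0 in 8 of 8 classes and reached 1.47 in enteroendocrine-like nuclei, its largest change, at 108, 96.1 and 110.2 CPM in CON replicates 1 to 3 and 96.2, 459 and 228 CPM in SAP replicates 1 to 3 (edgeR adjusted p = 0.271). Tjp3 was called there with no filter on low counts (edgeR adjusted p = 0.0206; 0.0206 to 0.811 over all settings), and its log2 fold change was 0.83 without SAP replicate 2. Ctnnb1 was above 0 in 7 of 9 classes, and the SAP libraries lay above the CON libraries in tuft-like (0.63) and enteroendocrine-like nuclei (0.63). Tjp1 and Cgn were above 0 in 8 of 9 and 8 of 9 classes, Ocln in 7 of 9, Marveld2 in 6 of 7 and Marveld3 in 3 of 8. Tjp3, Marveld2 and Marveld3 were too low to be tested in Paneth-like nuclei, as was Marveld2 in enteroendocrine-like nuclei.

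The other genes of the junction were taken from lists, and 0 of them were called by edgeR in epithelial nuclei, while DESeq2 called 1, Pard6b. Over all genes the shares were 49.8% above 0, 11.2% at an unadjusted p under 0.05 and 2.08% called by DESeq2, and the counts of each list are to be read against these. Of 19 tested tight junction genes other than claudins and the members, 12 had a log2 fold change above 0 (median 0.21) and 1 stood at an unadjusted p under 0.05. Amotl2, an angiomotin-like protein, had the highest log2 fold change (log2 fold change 0.86, SE 0.34, edgeR adjusted p = 0.422; 0.56 without SAP replicate 2) and Ildr1, a protein of tricellular junctions, the lowest (log2 fold change -0.49, SE 0.32, edgeR adjusted p = 0.589; -0.25 without SAP replicate 3). Of 12 tested genes of the polarity complexes, 8 were above 0 (median 0.06) and 2 stood at an unadjusted p under 0.05. Pard6b, a partner of atypical protein kinase C, was at 10.1, 11.6 and 20.8 CPM in CON replicates 1 to 3 and 38.1, 33.3 and 38 CPM in SAP replicates 1 to 3 (log2 fold change 1.36, SE 0.33, edgeR adjusted p = 0.402); DESeq2 gave it an adjusted p of 0.0207, and over the edgeR settings its adjusted p ran from 0.167 to 0.933. Prkci, that kinase, was at 112, 126 and 101 CPM in CON replicates 1 to 3 and 63.6, 73.1 and 83 CPM in SAP replicates 1 to 3 (log2 fold change -0.62, SE 0.20, edgeR adjusted p = 0.402), with the SAP libraries below the CON libraries.

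Of 16 tested genes of the adherens junction other than the members, 10 were above 0 (median 0.02) and 1 stood at an unadjusted p under 0.05. Cdh17, the intestinal cadherin, was at 606, 389 and 579.7 CPM in CON replicates 1 to 3 and 1105, 1412 and 758 CPM in SAP replicates 1 to 3 (log2 fold change 1.06, SE 0.31, edgeR adjusted p = 0.402). After TMM scaling the SAP libraries of Cdh17 lay above its CON libraries, as those of Cdh1 did. Cdh11, a cadherin of mesenchymal cells, had the lowest log2 fold change of the list (log2 fold change -0.62, SE 0.51, edgeR adjusted p = 0.670; -0.22 without SAP replicate 2 and -1.25 without SAP replicate 3). Of 8 desmosome genes, 7 were above 0 (median 0.33) and 1 stood at an unadjusted p under 0.05, with Pkp3 (1.05) and Pkp1 (-0.48), both plakophilins, at the ends. Without SAP replicate 2 these were 0.65 and -0.19, and without SAP replicate 3 Pkp1 was at -0.80.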

How the data were processed

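UMI counts per gene and nucleus were deposited, 1 matrix per rat, for 3 CON and 3 SAP libraries (DNBelab C kit). The authors made them with dnbc4tools (v2.1.3); the submitters' processing notes name Seurat 4.3.0 and mRatBN7.2, and which build was used for the nuclei is not given in the sources used here. Nuclei with at least 1200 UMIs, at least 500 genes and at most 5% mitochondrial UMIs were kept, more nuclei than the study kept. Barcodes are running numbers within a library, so that names shared between libraries say nothing.

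Counts were log-normalised, and 2000 variable genes chosen within libraries and 30 principal components were taken in scanpy 1.11.5. Members, junction lists, claudin, mitochondrial, defensin, MHC and Reg3 genes and genes the study names were left out of the variable genes. Libraries were aligned with a separate implementation of Harmony. Leiden clustering (leidenalg 0.10.2, resolution 0.8) of a shared-neighbour graph (20 neighbours) gave 25 clusters. A cluster was named "X-like" from marker lists where at least 3 markers were detected, its score (mean marker log2 ratio) was at least 0.5 and 1.2 or more above the runner-up's score, limits chosen once the clusters were known. Scrublet's automatic threshold marked 0% of nuclei, so doublets were kept, and removing the top 5% of scores per library was an alternative.

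UMIs were summed per rat and class (at least 10 nuclei in every library) and tested with edgeR 4.0.16 in R 4.3.3 (quasi-likelihood, filterByExpr, TMM, two-sided, Benjamini-Hochberg over all genes tested), as the study's methods treated the rat as the replicate, with DESeq2 1.42.0, which those methods used, as an alternative. The tests were tried on simulated data. A gene was called where its adjusted p was below 0.05 and its log2 fold change was 0.5 or more in either direction. Levels at held class shares were compared by exact permutation, where 3 against 3 rats cannot go below p = 0.1. Named were all 9 members, and from each list the genes with the highest and lowest log2 fold change in epithelial nuclei and the genes called. For likeness, class means of genes with at least 20 CPM in some class were compared. The members and lists were chosen with earlier results of these data known. Fat-, mesothelial- and neutrophil-like nuclei and cluster 23 were too few to test, and spatial data were not analysed here. A junction list and a gene named for likeness are not reported here.

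The labels give both groups the replicate numbers 1 to 3 without saying what they share. Deviations from the group means correlated between same-numbered libraries at 0.577, 0.183 and 0.524 over all nuclei and at 0.579, 0.0513 and 0.408 over epithelial nuclei. Between libraries of different numbers the values ran from -0.616 to 0.144 over all nuclei and from -0.599 to 0.168 over epithelial nuclei. The epithelial value for replicate number 2 lay inside that range. The replicate number as a block was an alternative.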

Additional observations from a re-analysis of the deposited data

How the results depend on the processing

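Of 843 values under other settings, 832 kept their direction and their side of the threshold (or moved by less than the spread between rats). As no member or listed gene was called to begin with, a side could change only by gaining a call. A level at held shares that moved by less than that spread was counted as kept even where its sign changed. The count is therefore no measure of how stable the sizes were. With no filter on low counts, 1 of the member-class pairs was called, Tjp3 in enteroendocrine-like nuclei (log2 fold change 1.47, edgeR adjusted p = 0.0206, against 0.271 with the filter; 0.83 without SAP replicate 2). DESeq2 called Pard6b (1.38). By the median over libraries the enterocyte-like over stem/TA-like ratio of Cgn was 2.40. Leaving out 1 library at a time gave ranges that crossed 0 for Ocln (-0.066 to 0.41), Cgn (-0.14 to 0.82) and Marveld3 (-0.13 to 0.38) in epithelial nuclei and for Cdh1 in cluster 9 (-0.087 to 0.26), each below 0 without SAP replicate 2, and for the difference of the F11r changes between enterocyte-like and stem/TA-like nuclei (-0.28 to 0.38). At held class shares the log2 ratio crossed 0 for Tjp3 (-0.0032 to 0.68), Ocln (-0.19 to 0.16), Cgn (-0.34 to 0.46) and Marveld3 (-0.25 to 0.09), each lowest without SAP replicate 2, and for F11r it ran from 0.50 to 1.05, highest without CON replicate 3. The cause was not tested. The counts of called members ran from 0 to 0 without any 1 library. For F11r in epithelial nuclei the log2 fold change ran from 0.84 to 1.25 when 1 library was left out, and its adjusted p from 0.0748 to 0.933 over all settings. With the replicate number as a block, 0 members were called over all nuclei, over epithelial nuclei or in any class, and the block changed no other call; no block was fitted where the rat was already a term. Depth limits Marveld2, with 3200 UMIs in all, and the smaller classes.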
